A study of Drosophila melanogaster with 2 samples.

Results

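Binding of the fly protein CG17612 was examined at 9 genes that encode insulator and architectural proteins of Drosophila melanogaster, namely Chro, Cp190, Trl, Dref, su(Hw), CTCF, BEAF-32, mod(mdg4) and pzg. The genes were taken by name from the annotation and are 9 of its 13968 protein-coding genes on the chromosome arms. The set was chosen with earlier results of these data known, so its counts beside those of all genes are descriptive only. For each gene every ChIP-seq peak was read whose summit lay between 2 kb upstream of the gene start and the gene end, or within 500 bp of an annotated start site of the gene. ChIP-seq sequences the DNA that is pulled down with a chromatin protein. The transgenic flies expressed CG17612 fused to eGFP, per the labels through an insertion aimed at CG17612, and the fusion protein was precipitated with an antibody against GFP, although the antibody label names CG17612. Material was whole embryos of 0 to 24 hours, broken by sonication to fragments of 200 to 800 bp, in 2 biological replicates of 1 group, and the sequences that drive the transgene are not described in the labels. A control experiment named in the labels was not analysed here, and no condition was compared with another. Because whole embryos of mixed age were pooled, strong binding in few cells and weak binding in many cannot be told apart.

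Insulator proteins bind DNA or bound partners and help to separate neighbouring stretches of chromatin, blocking contact between an enhancer and a promoter or marking the border of a folded domain. In flies several DNA-binding proteins do this work, among them Su(Hw), CTCF, BEAF-32 and the GAGA factor, and they share cofactors with BTB domains such as Cp190 and the Mod(mdg4) proteins. Chromator and Z4, the product of pzg, sit in the open interbands of polytene chromosomes, and Dref, BEAF-32 and Z4 are tied to promoters of housekeeping genes. Whether CG17612 acts with these proteins was not measured. The data give the positions of CG17612 at the genes that encode them.

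CG17612 peaks past the authors' threshold lay at 7 of the 9 genes, and 5 of the 9 had one at a start site. The threshold is on the irreproducible discovery rate (IDR), a measure of how well peaks rank alike, here in both replicates. Each replicate also has a thresholded list with IDR values of its own, so being in that list is a separate criterion. The list that the authors call conservative, made from both replicates, held 2094 peaks, of which 2042 were on the 7 arms. Chro, Cp190, Trl, Dref and BEAF-32 had a summit no more than 500 bp from one of their start sites, as did 8.69% of all protein-coding genes. With su(Hw) and mod(mdg4), 7 genes had a summit between 2 kb upstream and the gene end, against 15% of all protein-coding genes. CTCF and pzg had none. The 7 genes held 9 peaks in all, since Trl and mod(mdg4) held 2 each.

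Letters from the windows around the summits are shown for 5 of the 9 peaks. They were chosen as the 3 highest, the one richest in G and C, and the one at the precursor starts of mod(mdg4). All lines give the plus strand of dm6, 5′ to 3′, from the RefSeq copy of the Release 6 genome. Capitals mark matches to the words searched in the windows of 101 bp around the summits, and a line in lower case has no match. The lines for Chro, Dref and mod(mdg4) give only a stretch of that window, because the window overlaps untranslated leader sequence. The mod(mdg4) stretch begins just past the summit and does not hold it. The first word found was CGATA, the core of the sites that BEAF-32 binds. AAAGTAT was the other, read here on the opposite strand as ATACTTT, and it was chosen after the data were seen because it was frequent under conservative summits.
Chro, chr3L:22878890-22878919: gtCGATAgctttaaactaactgcagtccag
Cp190, chr3R:15275320-15275420: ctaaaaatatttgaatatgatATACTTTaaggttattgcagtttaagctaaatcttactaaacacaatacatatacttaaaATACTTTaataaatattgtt
Trl intron, chr3L:14759466-14759566: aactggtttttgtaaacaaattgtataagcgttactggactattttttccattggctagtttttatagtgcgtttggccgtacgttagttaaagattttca
Dref, chr2L:9967260-9967312: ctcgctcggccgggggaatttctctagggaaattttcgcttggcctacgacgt
mod(mdg4) interior, chr3R:21365489-21365535: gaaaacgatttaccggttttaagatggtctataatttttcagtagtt

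**Figure D1:**
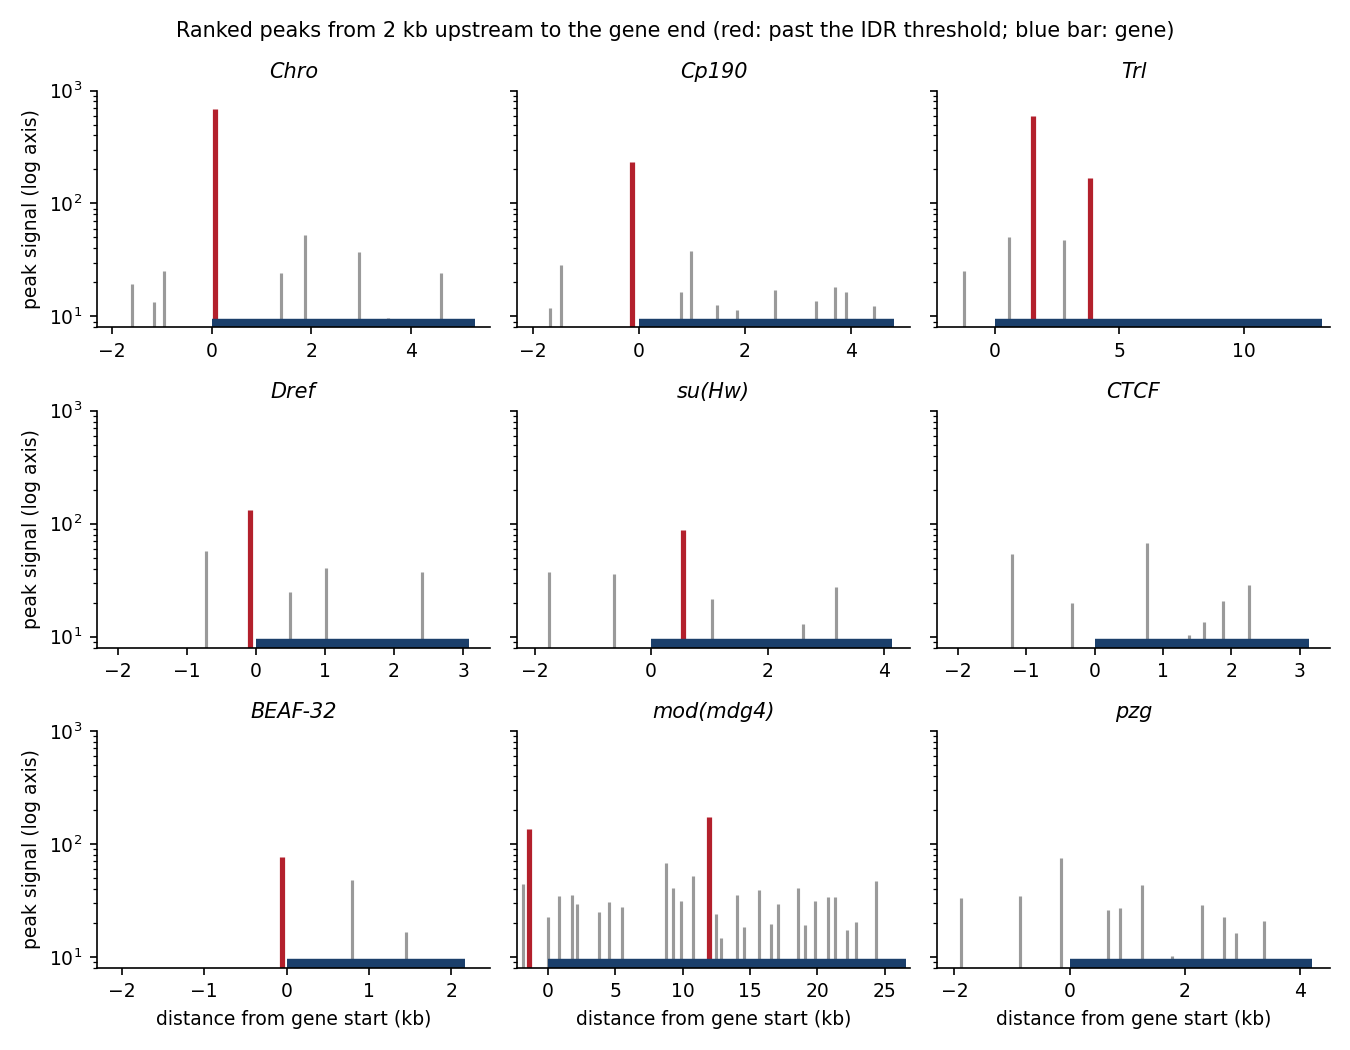
Peaks of the ranked list of both replicates at each of the 9 genes, by distance of the summit from the gene start in kb along the direction of transcription, with peak signal in the authors' units on a log axis cut off at 8. Red lines are the 9 peaks past the IDR threshold and grey lines the others; Chro, Cp190, Dref and BEAF-32 each show 1 red line at the gene start, while both red lines of Trl stand inside the gene.

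Among the cofactor genes, Chro carried the highest peak of the 9 genes and Cp190 the third highest. Chro (FBgn0044324) encodes the chromodomain protein Chromator and occupies chr3L:22873702-22878984 on the minus strand. Its peak, chr3L:22878786-22879019, had a signal of 693 and was number 18 of 2094 (percentile 99.2 of the list). The summit lay in the 5′ UTR, 79 bp inside the gene, and 184 bp from the start of Ssl1, which encodes part of the TFIIH complex of the transcription machinery and is transcribed away from Chro. The peak had a signal of 352 in replicate 1 and 353 in replicate 2 (mean 352.5 ± 0.166, SD, n = 2). Those values were nearly equal, and the summits of the replicates were 11 bp apart. The ranked list held 8 further peaks in the gene span, the highest at 53.0.

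Cp190 (FBgn0000283, chr3R:15270432-15275241, minus strand) encodes a zinc finger protein with a BTB domain that most fly insulator complexes share. Its peak at chr3R:15275208-15275531 had a signal of 231, number 204 of 2094, with the summit 129 bp upstream of the gene start. This is the short stretch between Cp190 and CG4338, whose start on the other strand was 152 bp from the summit. Replicate 1 gave 104 and replicate 2 gave 120.4 (mean 112 ± 11.8, SD, n = 2), so replicate 2 was the higher by a small margin. The thresholded list of each replicate held the peak.

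The other cofactor gene, mod(mdg4) (FBgn0002781, chr3R:21350846-21377401, minus strand), encodes a family of BTB proteins that differ in their C-terminal ends, made by joining 1 shared leading part to exons transcribed from either strand of the locus. Neither of its peaks was at the gene start. The stronger peak (signal 175, number 371 of 2094, chr3R:21365323-21365646) lay 11916 bp inside the gene, in an intron of mod(mdg4) and in the 5′ UTR of pre-mod(mdg4)-E, one of the annotated precursor transcripts, on the minus strand. Its summit was 3 bp inside the start of that precursor. A start on the plus strand shared by 7 further precursors (AD, AE, U, V, W, X and Y) was 124 bp away, and that of AB and C, on the minus strand, 195 bp. The summit thus had precursor starts of both strands within 200 bp. Replicate 1 gave 98.1 and replicate 2 gave 78.3, with summits at the same base.

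The second mod(mdg4) peak (signal 135, number 586, chr3R:21378638-21378961) was 1399 bp upstream of the gene start. The nearer start site was that of tin, 177 bp away, which encodes the homeodomain protein Tinman of the dorsal mesoderm and heart. Replicate 2 gave 82.8 and replicate 1 gave 54.4, and of their thresholded lists only that of replicate 2 held the peak. A further mod(mdg4) peak stood in the thresholded list of replicate 2 alone (chr3R:21367899-21368188, signal 37.2, number 1297 of 1347). In replicate 1 the overlapping ranked peak had a signal of 19.98, and it was not in the conservative list.

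Genes of the DNA-binding proteins ran from the second highest of the 9 peaks, in Trl, to the lowest, at BEAF-32, and to CTCF, which had none. Trl (FBgn0013263, chr3L:14747929-14761049, minus strand) encodes the GAGA factor, which binds GAGAG repeats and opens chromatin. Its first peak, chr3L:14759396-14759633, was number 26 of 2094 with a signal of 592, and lay in an intron 1533 bp inside the gene. The replicates gave 298 and 299 (mean 299 ± 1.16, SD, n = 2), with summits 1 bp apart. A second Trl peak (signal 168, number 410, chr3L:14757048-14757371) lay at an internal start site, with the summit 126 bp inside it and 3839 bp from the gene start. There the 5′ UTR of Trl overlaps that of CG42507, and the replicates gave 74.2 and 91.7, with replicate 2 the higher. At the outermost start of the gene no peak passed the threshold.

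Dref (FBgn0015664, chr2L:9964147-9967229, minus strand) encodes the factor that binds the DNA replication-related element TATCGATA. Its peak at chr2L:9967148-9967471 had a signal of 131 and was number 616. The summit was 81 bp upstream of Dref and 3 bp from the start of RpL13, a gene of the large ribosomal subunit on the other strand. The peak was number 397 in the thresholded list of replicate 1. That of replicate 2 did not hold the peak, whose −log10 IDR there was 1.82. The signal was 90.4 in replicate 1 and 35.0 in replicate 2. The ratio of 2.59 was the highest among the 9 peaks, and 34 of 2020 conservative peaks with both values (1.68%) had a ratio at least as high.

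The peak of su(Hw), whose zinc finger protein binds the gypsy insulator, was weaker, with a signal of 88.7 (number 1237, chr3R:14307874-14308197). The gene (FBgn0003567) lies at chr3R:14304455-14308589 on the minus strand. Its summit lay in the 5′ UTR 553 bp inside the gene, just outside the window of 500 bp around the start. Replicate 1 gave 59.9 and replicate 2 gave 39.7, number 1265 of 1347 in that list. Both thresholded lists held the peak, that of replicate 2 close to its end by signal.

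BEAF-32 (FBgn0015602, chr2R:14770469-14772630, plus strand) encodes a protein that binds CGATA clusters at promoters. It had the lowest of the 9 peaks, with a signal of 75.9, number 1589 (chr2R:14770246-14770569). The summit was 61 bp upstream of the start and in an exon of the antisense RNA gene asRNA:CR42254. Replicate 1 gave 44.7 and replicate 2 gave 31.9, and neither replicate's own thresholded list held the peak. It is thus in the conservative list only through the comparison of both replicates.

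CTCF and pzg had no thresholded peak, although pzg came close in the comparison of both replicates. At pzg (FBgn0259785, chr3L:21286099-21290310, plus strand), which encodes the zinc finger protein Z4, the highest ranked peak had a signal of 75.1 at chr3L:21285792-21286115, against 75.9 for BEAF-32. Its −log10 IDR was 1.98, against 2.00 for the lowest in the conservative list. The summit was 145 bp upstream of pzg and in the 5′ UTR of the divergent gene CG12974, and the replicates gave 36.3 and 28.2. Their summits were 80 bp apart. In the ranked list of each replicate the −log10 IDR of this peak was 0.115 in replicate 1 and 1.93 in replicate 2. At CTCF (FBgn0035769, chr3L:7353578-7356713, minus strand), the fly relative of the vertebrate insulator protein, the highest peak (68.0, −log10 IDR 1.39) lay in a coding exon 767 bp inside the gene. There the replicates gave 29.3 and 24.7.

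**Figure D2:**
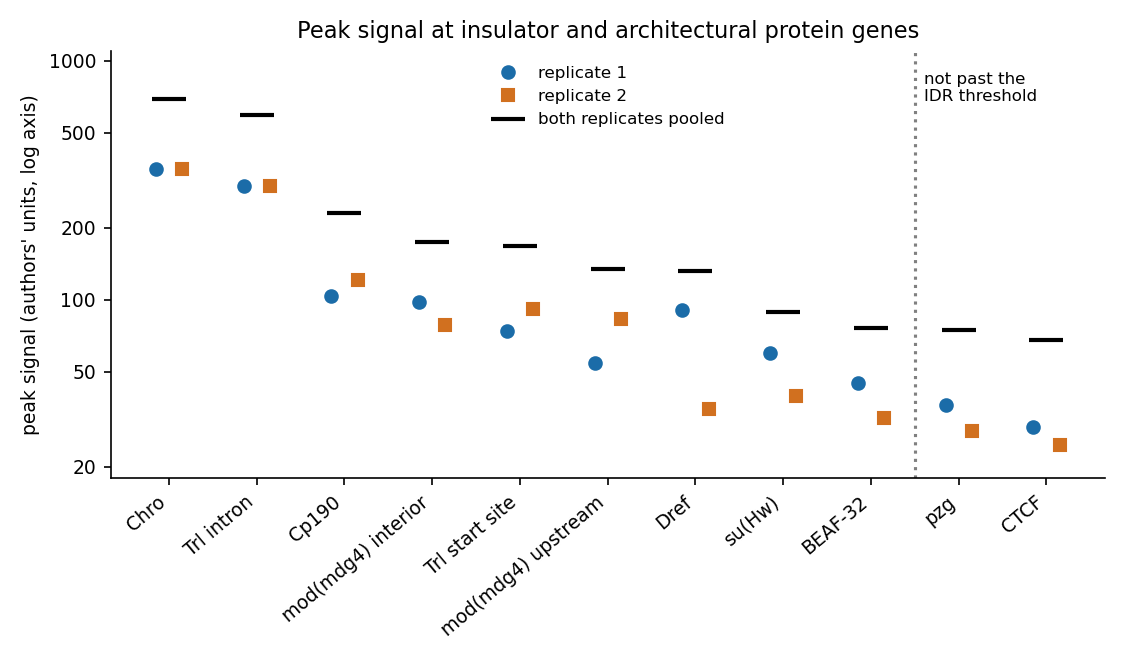
Peak signal in the authors' units (log axis) for the 9 conservative peaks and the highest ranked peaks of pzg and CTCF, with replicate 1 as circles, replicate 2 as squares and the value from both replicates pooled as bars. Both replicate values lie close together at Chro and in the Trl intron, and they lie farthest apart at Dref (90.4 and 35.0).

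The 3 highest peaks were the same in each replicate, with Chro first, the Trl intron next and Cp190 after them. The ratio of replicate 1 to replicate 2, not corrected here for depth, ran from 0.657 at the upstream mod(mdg4) peak to 2.59 at Dref. It was above 1 at 4 of the 9. Over 2020 conservative peaks the median ratio was 1.10, with 0.753 and 1.73 as the 10th and 90th percentiles, so that only the upstream mod(mdg4) peak and Dref fell outside that range. The thresholded list of each replicate held 7 of the 9 peaks. Replicate 1 lacked those of BEAF-32 and upstream of mod(mdg4), and replicate 2 lacked those of BEAF-32 and Dref. Conservative peaks are chosen for ranking alike in the replicates, so this likeness is partly set by the list. At start sites, 4 genes had a peak in the list of replicate 1 (Chro, Cp190, Trl and Dref), where 6.56% of protein-coding genes had one. Replicate 2 gave 3 (Chro, Cp190 and Trl) beside 5.87%. Over the gene spans the counts were 6 in replicate 1, where 10.6% of genes had a peak, and 5 in replicate 2, beside 10.2%.

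**Figure D3:**
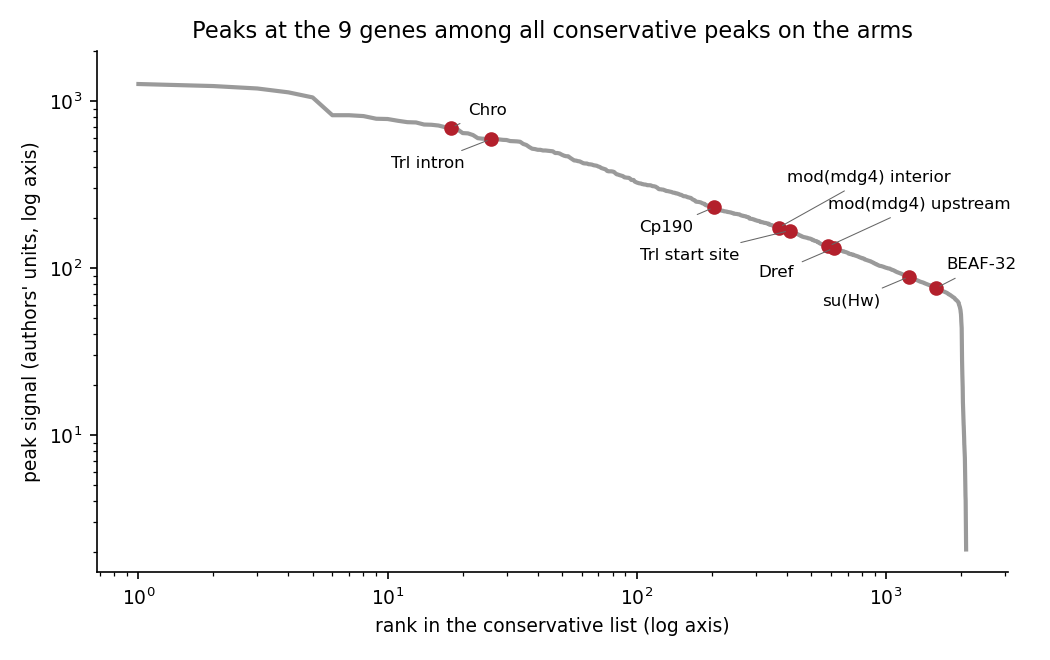
Signal of every conservative peak on the arms (grey, authors' units) against its rank in the list, both on log axes, with the 9 peaks at the insulator and architectural protein genes in red. Chro (rank 18) and the Trl intron (rank 26) stand near the top, and su(Hw) (1237) and BEAF-32 (1589) in the lower part of the list.

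Long genes hold more peaks, so the counts were set beside the length of the spans. The 9 spans had a median of 6212 bp and summed to 84.5 kb, against a median of 4164.5 bp over all protein-coding genes and 6387 bp over those with a peak. Per 100 kb of span the 9 genes held 10.7 conservative peaks and all protein-coding genes 2.12. The 9 genes were not chosen blind to these data, so this difference is described and was not tested. The ranked list, which holds peaks regardless of IDR, had 1.17 peaks per kb in the 9 spans and 1.14 over all protein-coding genes. It put a summit near a start site of 8 of the 9 genes, all but su(Hw), and of 79.3% of protein-coding genes, a share near that of the 9. Of the 99 ranked peaks in the 9 spans, 9 were in the conservative list (9.09%), against 1.41% of all ranked peaks on the arms. The other 90 had a median signal of 24.5 and the highest of them was 75.1. The 9 genes had on average 1.89 start sites each, and all protein-coding genes 1.41, which gives more windows in which a start-site peak can fall.

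**Figure D4:**
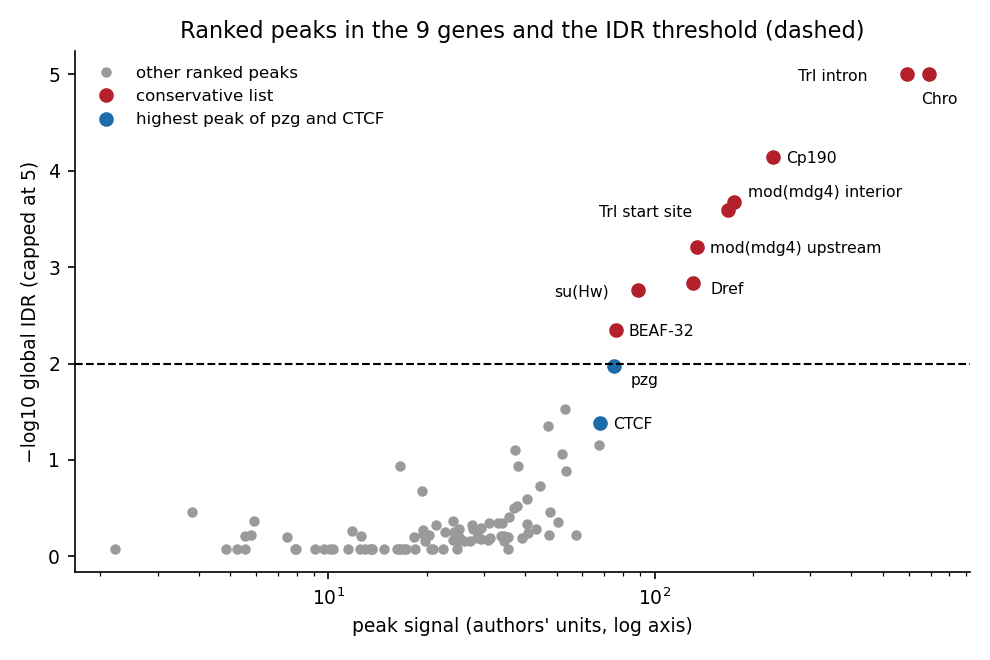
The 99 ranked peaks of the 9 gene spans by signal (authors' units, log axis) and by −log10 of the global IDR, which the authors capped at 5. The 9 conservative peaks (red) lie above the dashed threshold of 2, the highest pzg peak lies just under it at 1.98, and the grey peaks lie below.

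Of the 9 summits, those of Dref and Cp190 lay between the gene's outermost start and a divergent protein-coding start less than 500 bp from it. The starts of Dref and RpL13 were 84 bp apart and those of Cp190 and CG4338 281 bp. The starts of Chro and Ssl1 were 105 bp apart, but the summit lay outside that stretch, inside Chro. At pzg, whose peak did not pass the threshold, the gap to CG12974 was 137 bp and the summit lay beyond it, inside CG12974. Each of these summits was within 500 bp of the start sites of both genes, and the lists do not say to which it belongs. Given only to the nearest start site, the peak near Dref went to RpL13 and 4 of the 9 genes kept a start-site peak. From the outermost gene start of Trl, BEAF-32, su(Hw), mod(mdg4) and CTCF, the nearest protein-coding start on the other strand was 500 bp or more away. Distances from the summits can be shorter. The upstream mod(mdg4) summit also lay between divergent starts, those of mod(mdg4) and tin, but these were 1576 bp apart. It was 177 bp from the start of tin. The interior mod(mdg4) summit was 124 bp from precursor starts on the plus strand.

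Few matches to words of known binding sites were found within 50 bp of the 9 summits. These counts are near the low shares of all conservative windows given below. The words were TATCGATA (Dref), CGATA (BEAF-32), GAGAG (GAGA factor), TGCATA (part of the Su(Hw) site), GGNGGCGC (part of the CTCF site), GGTCACAC (the M1BP promoter motif), CAGCTG (an E-box) and CAGGTA (Zelda), each searched on both strands, and the Dref word contains the BEAF-32 word. A match to CGATA was found once, at Chro, as in the sequence given for it, and the other 7 words matched at 0 of the 9 summits. CGATA was held by 14.4% of all conservative windows and 23.6% of windows of the same length at protein-coding start sites. The shares for GAGAG were 9.70% and 12.7%, for TGCATA 10.9% and 3.41%, and for TATCGATA 1.13% and 4.48%. Those for CAGCTG were 3.53% and 8.77%, for GGNGGCGC 1.37% and 0.716%, for GGTCACAC 0.539% and 4.67%, and for CAGGTA 1.22% and 2.00%. AAAGTAT, chosen after the data were seen, matched at Cp190, with both copies in capitals in its sequence, in 7.49% of conservative windows and in 2.52% of start-site windows. AAGTATGC, chosen in the same way, matched at 0 of the 9 summits, beside 3.97% and 0.259%.

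Base composition differed widely among the summits. The window of Cp190 was 81.2% A and T, at or above which lay only 2.94% of conservative windows, and that of Dref was 52.5%, with 83.4% at or above. Chro had 68.3%, the Trl intron and BEAF-32 67.3%, the mod(mdg4) interior peak 66.3% and its upstream peak 64.4%. The Trl start-site peak had 59.4% and su(Hw) 58.4%. The median of the 9 was 66.3%, close to the 65.3% of all conservative windows (quartiles 56.4% and 72.3%), while start-site windows had 56.4%. Under the highest peaks of pzg and CTCF, which did not pass the threshold, the share was 50.5% and 38.6%, both below the 9.

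**Figure D5:**
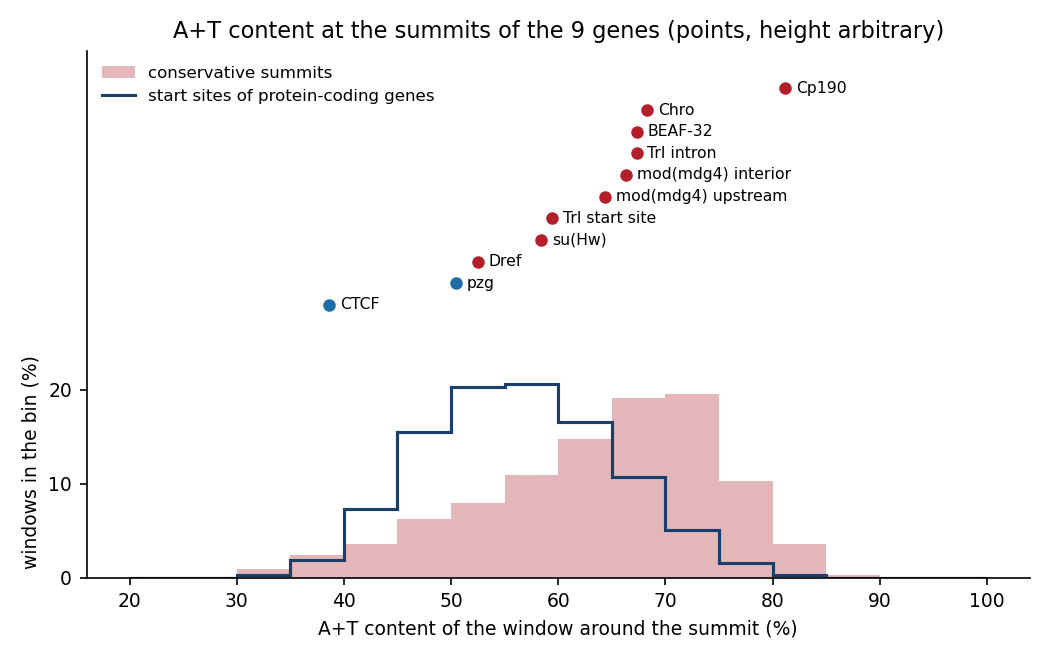
Percentage of A and T in windows of 101 bp for all conservative summits (filled) and for start sites of protein-coding genes (line), as the percentage of windows in each bin, with the 9 peaks as red points and the highest peaks of pzg and CTCF as blue points at arbitrary heights. Cp190 lies at 81.2%, in the right tail of the conservative windows, and CTCF lies at 38.6%, in the left tail.

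Start-site peaks were also counted at related genes. A list of 20 further insulator, architectural, cohesin and condensin genes had 3 with a start-site peak, against the 8.69% of all protein-coding genes, and 4 with a peak in the gene span, where the share over all protein-coding genes was 15%. SA1, a cohesin subunit, had a signal of 115 (replicates 67.6 and 55.5) with the summit 145 bp from its start, near that of Gas41. Cap-H2, a condensin subunit, had 99.4 (50.7 and 49.3), 230 bp away and near MED7. The bromodomain gene fs(1)h had 99.5 (53.4 and 37.3), 204 bp away and near mys, an integrin gene. JIL-1, a kinase of histone H3, had an intronic peak of 168 (79.3 and 91.2) 7069 bp from a start. Per 100 kb of span the 20 genes held 2.66 conservative peaks, near the 2.12 of all protein-coding genes, and the 9 genes held 10.7. The genes Clamp, vtd and SMC1 held no ranked peak in their spans, whatever the IDR. Each of the 3 start-site peaks was nearer to the start of another gene, and none of the 20 genes had one when a peak was given only to the nearest start site.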

How the data were processed

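The data were 8 peak lists of CG17612 ChIP-seq, 4 thresholded on IDR and 4 ranked without threshold, on dm6 per the deposited description files. Which aligner and caller made them is not given in the sources used here. Peak signal is the value the authors deposited for each peak, on an unstated scale. It served for description and for ranking inside 1 list. Ratios and means of the replicates set values of separate lists side by side and were not corrected here for depth. The −log10 of the global IDR is as deposited by the authors in the ranked lists. The lists hold no counts, so library depth is unknown and intervals are not given. Lists of both replicates were made from the pooled alignments, per the deposited description files, and 4 unnamed columns of replicate values in them were not used.

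Here ranks, summit distances, overlaps of at least 1 bp, word matches and A and T shares were computed with Python 3.11.15, numpy 2.4.6 and pandas 2.3.3, using Ensembl release 115 (BDGP 6.54) and the RefSeq Release 6 genome. Coordinates are 1-based. A replicate's value is that of the highest overlapping peak in its own ranked list. The ranked list of the conservative comparison was the one that held all its peaks with the same signal. The step that assigns peaks to genes was checked on planted peaks. No test was run, since there is 1 group and nothing to compare it with. The replicates are called biological in the labels, and nothing else states how they were grown. Genes named are the 9 genes, those with start sites within 500 bp of their summits, the 20 further genes with a start-site peak, and the nearest protein-coding genes 1 rank above and below. Genes outside that rule (JIL-1, Clamp, vtd, SMC1 and some neighbours) were named after their values were seen. The genes, lists and words were chosen with earlier results of these data known. Alternatives were the less strict list, each replicate alone, the higher-scoring peaks, other distances, overlap rules and window sizes, and assignment to the nearest start site.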

Additional observations from a re-analysis of the deposited data

How the results depend on the processing

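Of 54 alternative values, 41 stayed within 1.5 times the value reported, or within the replicate spread for percentiles, and 13 moved. The count of genes with a start-site peak was 5 and ran from 3 to 4 with 1 replicate left out. Genes with a peak in the span, 7, ran from 5 to 6, the peaks themselves, 9, from 7 to 8, and the 20 further genes with a start-site peak, 3, came to 2 with either replicate left out. Dref and BEAF-32 had no peak without replicate 1, nor had BEAF-32 without replicate 2. These losses leave no percentile to compare, so they are not counted among the 54 or the 13. The su(Hw) peak fell from percentile 41.0 to 6.16 without replicate 1, but the list was shorter. It was number 1237 of 2094 in the conservative list and 1265 of 1347 in that of replicate 2. In the ranked lists, which have no threshold, its percentile was 99.1 for both replicates pooled and 98.7 in replicate 2. Assigning each peak to the nearest start site took the further genes from 3 to 0. Word matches rose from 1 to 3 with 100 bp on each side, and to 2 with the words chosen after seeing the data. Beyond the nearest-start rule, the less strict list and the other distances left every count of genes and peaks within 1.5 times. Unknown depth limits any reading of an absent peak. No paired analysis was possible because there is 1 group and no test.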

Other observations

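The peaks 1 rank above and 1 rank below the highest peak of each of the 7 genes with a conservative peak were assigned to the nearest protein-coding gene. Beside Chro (signal 693), the peak 1 rank above was nearest to eIF6, a ribosome biogenesis factor (697), and the one below to kcc, a potassium-chloride cotransporter (679). Next to the Trl intron peak (592) stood HmgZ, a high mobility group protein gene (593), and Elp5, of the Elongator complex (591). The interior mod(mdg4) peak (175) stood between CG44286 (175) and CHES-1-like, a forkhead gene (174). Cp190 (231) had Btk, a tyrosine kinase gene, 4500 bp away (231) and CG40191, 20503 bp away (230.4). Dref stood between bmm, a triglyceride lipase gene, and melt (131 each), su(Hw) between RpL7 (88.8) and DnaJ-H (88.7), and BEAF-32 between CG5515 and CG5854 (75.9 each). This likeness is in signal over 1 list, and nearest gene is by distance alone.

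Conservative peaks narrower than 324 bp numbered 230 of 2042 on the arms (11.3%), with a median signal of 309 against 91.6 for those of 324 bp. Chro (234 bp) and the Trl intron (238 bp) were the only narrower ones among the 9.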
